A study of Mus musculus with 6 samples.

Results

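Homologous recombination and mismatch repair genes were measured in lung RNA of mice lacking Carm1, against wild-type lung RNA. The set held 37 genes, listed by name when earlier results of these data were known. They were genes of homologous recombination, of the Fanconi anaemia pathway, of mismatch repair and of damage signalling. Of 18193 genes named on the array, 36 belonged to the set, with 80 probe sets, and Xrcc2 had no probe set that was named here. A probe set is a group of short oligonucleotides against 1 transcript, whose signal is read as 1 value.

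The samples were 3 lung RNAs labelled Carm1 knockout, Carm1 being the gene of an arginine methyltransferase that acts as a transcriptional coactivator, and 3 lung RNAs labelled wild type. The study's design text places both genotypes at embryonic day 18.5, and the knockout labels say the same, while the wild-type labels say neonatal, so genotype and a difference in age cannot be told apart from the labels. The allele, the strain, the litters and any pooling of animals are not given in the labels. Each labelled sample was hybridised to 1 Affymetrix whole-genome mouse array, and with no word on separate animals the p-values measure only the spread between these samples.

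As background, homologous recombination mends broken chromosomes by copying the intact sister chromatid, and therefore works in cells that are replicating or have replicated their DNA. The Fanconi anaemia proteins open crosslinks that join the strands of the helix and hand the lesion to recombination, mismatch repair removes errors left by the replicative polymerases, and the kinases ATM and ATR with their partners report damage and stalled forks to the cell cycle. Many of these genes are transcribed chiefly in dividing cells, and the lung shortly before birth still contains such cells.

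The lung surfactant gene Sftpc had signals of 48245 to 54636 in knockout and of 45812 to 57628 in wild type. Carm1 itself, read by 1 probe set, had signals of 395, 374 and 511 in knockout, against 814, 678 and 865 in wild type (log2 difference −0.89, SE 0.16, adjusted p = 0.105, limma), and its place relative to the deleted part is not known here. Read from Xist and Y-linked genes, knockout replicate 2 and wild type replicate 3 were male and the other arrays female. Liver transcripts stood out on 1 array of each genotype. The summed signal of 5 liver markers was 148421 on knockout replicate 1 and 107971 on wild type replicate 2, and between 179 and 16577 on the other 4 arrays. Heart markers were highest on knockout replicate 2, with a sum of 36941 against at most 15202 on any other array. Bacterial control RNA was present on wild type replicates 1 and 3, at median signals of 615 and 451, and at 2.40 to 10.6 on the other arrays. None of the liver or heart markers was at 0, array medians lay between 106 and 121, and the part of these transcripts in the results below was not tested beyond the values given without those arrays.

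Genes of recombination and mismatch repair mostly had higher signals in knockout lung. Of the 35 genes whose main probe set passed the filter on dim signals (a geometric mean over all arrays above 59.7), 33 had a higher mean log2 signal in knockout and 2, Palb2 and Msh3, a lower one. A difference above 0 was also found in 54.6% of all genes at 1 probe set per gene and in 52.7% of probe sets. The median log2 difference was 0.38, from −0.24 for Msh3 to 1.27 for Brca1, while the median over all 27022 tested probe sets was 0.02 and over 12947 genes 0.03. With limma 0 of the 35 passed an adjusted p of 0.05 over all tested probe sets, where 0.0296% of all probe sets did, and the smallest adjusted p was 0.135. At an unadjusted p under 0.05, 13 of the 35 (37.1%) were higher and 0 lower, where 7.32% of all tested probe sets, or 9.14% at 1 probe set per gene, were higher, and 6.31%, or 7.36% at 1 probe set per gene, were lower. In 16 of the 35 (45.7%) the lowest knockout array exceeded the highest wild-type array, where 10.7% of all probe sets and 12.6% of genes did so, and 0 of the 35 were separated the other way, where 9.36% and 10.5% were. Each of these 16 had an exact two-sided permutation p of 0.1, the smallest that 3 against 3 arrays can give. In whole-lung RNA, a change in the number of dividing cells and a change of transcript per cell cannot be told apart.

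Of the 59 tested probe sets of these genes, 53 had higher and 6 lower mean signals in knockout. The filter took the mean of both groups, and 34 of the 35 genes would also have passed on the wild-type arrays alone, the exception being Brip1. The count of 13 became 6 without knockout replicate 1, 8 without knockout replicate 3, and 7 without the pair of arrays rich in liver transcripts, a setting added after the data were seen. That setting leaves wild type replicates 1 and 3, which held bacterial control RNA, against knockout replicates 2 and 3, which did not. Genotype and control RNA cannot be told apart in it. The median log2 difference stayed between 0.30 and 0.48 under all of 20 alternatives. Centring each array on its median moved the share of higher genes among all probe sets at an unadjusted p under 0.05 to 35.2%, against 53.7% in the values as deposited, and left 31 of the 35 genes higher with a median of 0.32, while quantile normalization left 32 higher with the same median.

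**Figure D1:**
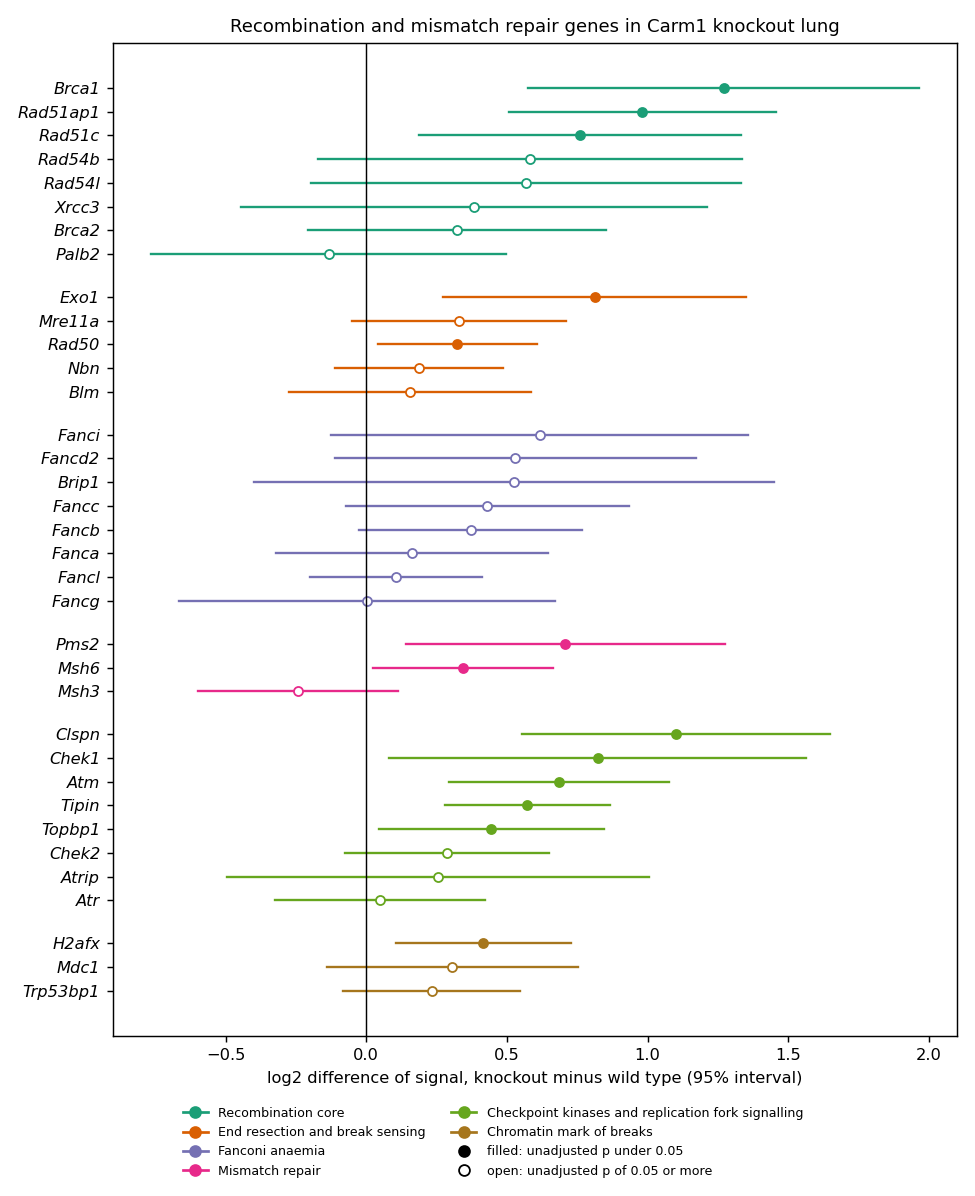
Log2 difference of signal, knockout minus wild type, with the 95% interval of the limma fit, for the 35 tested genes in 6 functional groups. Filled points mark an unadjusted p under 0.05; the points of 33 genes lie right of 0, and Palb2 and Msh3 lie left of it.

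The recombination core carries out the search for and copying of the intact sister sequence, and 7 of its 8 tested genes were higher in knockout, with a median log2 difference of 0.57. Of all genes 54.6% were higher. Brca1, which brings broken ends into recombination, showed the largest difference of the set. Its signals were 402, 299.8 and 486 in knockout, against 104, 180.0 and 224 in wild type. The lowest knockout array was thus above the highest wild-type array, and the knockout mean was 2.41-fold the wild-type mean (log2 1.27, SE 0.31, adjusted p = 0.156, limma). A second tested probe set of Brca1 gave 2.45-fold, also without overlap. Rad51ap1, a DNA-binding partner that stimulates strand exchange, had signals of 736, 663 and 785 in knockout, against 262, 443 and 429 in wild type. No arrays overlapped, and the difference was 1.97-fold (95% interval 1.42 to 2.74, adjusted p = 0.135). The other 3 probe sets of Rad51ap1 gave smaller log2 differences of 0.60, 0.56 and 0.05, so the gene's probe sets disagreed in size and not in sign.

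Rad51c, a recombination gene mutated in some families with breast and ovarian cancer, had signals of 182, 139 and 184 in knockout, against 107, 108 and 83.5 in wild type. Again no arrays overlapped (1.69-fold, SE 0.25 on the log2 scale, adjusted p = 0.258), and the second probe set was at 0.58 with overlap. Rad54b, a chromatin-remodelling translocase, was even among knockout arrays, at 93.1, 93.3 and 89.6, against a spread of 44.7, 69.2 and 75.2 in wild type. Its relative Rad54l had signals of 263, 115 and 275 in knockout, against 129, 143 and 139 in wild type, so that knockout replicate 2 lay under every wild-type array while the other knockout arrays lay above all of them. Both genes had log2 differences close to each other, 0.58 for Rad54b and 0.57 for Rad54l, with adjusted p of 0.487 and 0.502.

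Brca2, a large protein that acts on single-stranded DNA at resected breaks, averaged 294 ± 68.2 in knockout and 233 ± 41.3 in wild type (SD, n = 3 each), a log2 difference of 0.32 with a 95% interval from −0.21 to 0.85. Palb2, the bridge between BRCA1 and BRCA2, was the exception in this group. Its signals were 149, 230.4 and 147 in knockout, against 139, 227 and 211 in wild type (log2 −0.13, SE 0.28, adjusted p = 0.871). The ranges of the genotypes covered each other, and the log2 difference depended on single arrays, from −0.35 without wild type replicate 1 to 0.0010 without wild type replicate 2. It was 0.10 without the liver-rich arrays. Xrcc3, which forms a complex with RAD51C, averaged 99.0 ± 7.56 in knockout and 80.2 ± 30.1 in wild type. Bard1, the obligate partner of BRCA1, lay below the filter, with signals of 35.5, 7.07 and 33.2 in knockout and 30.0, 5.495 and 5.78 in wild type, and was not tested. The 3 genes of this group at an unadjusted p under 0.05 were thus Brca1, Rad51ap1 and Rad51c, beside 9.14% of all genes higher at that p. There were 5 such genes without knockout replicate 2, and 2 without knockout replicate 1, without knockout replicate 3, without the liver-rich arrays or with probe sets averaged. Rad51c was the gene that missed the unadjusted threshold in those 4 settings, at p of 0.055, 0.052, 0.072 and 0.061 (limma), and it missed it on the arrays without bacterial control RNA too, at 0.11.

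End resection turns a break into single-stranded DNA, and its 5 genes were all higher in knockout, with a median of 0.32 and 3 without overlap. Of all genes, 54.6% were higher, 12.6% were higher without overlap and 9.14% were higher at an unadjusted p under 0.05. Of the 2 at an unadjusted p under 0.05, Exo1 and Rad50, 1 was left without knockout replicate 1, knockout replicate 2, wild type replicate 2 or wild type replicate 3. Exo1, the exonuclease of long-range resection, which also serves mismatch repair, had signals of 198, 224 and 329 in knockout, against 135, 145 and 138 in wild type. The wild-type arrays lay close together and below all knockout arrays (1.75-fold, SE 0.24 on the log2 scale, adjusted p = 0.213), and the second tested probe set gave 2.19-fold. At the main probe sets the MRN complex, which senses and trims ends, differed less. Rad50, its ATPase, had signals of 668, 717 and 675 in knockout, against 589.9, 501 and 558 in wild type, again with no overlap (1.25-fold, SE 0.12 on the log2 scale, adjusted p = 0.308). Its nuclease Mre11a was at 353 ± 23.4 in knockout and 282 ± 36.9 in wild type, and its remaining subunit Nbn at 609 ± 54.4 in knockout and 534 ± 36.6 in wild type. The log2 differences of the complex were 0.32 for Rad50, 0.33 for Mre11a and 0.19 for Nbn, where Rad50 and Mre11a did not overlap between groups and Nbn did. The second tested probe set of Mre11a was at 0.54, also without overlap. Blm, the helicase that dissolves joined molecules, averaged 274 ± 52.2 in knockout and 243 ± 8.72 in wild type.

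**Figure D2:**
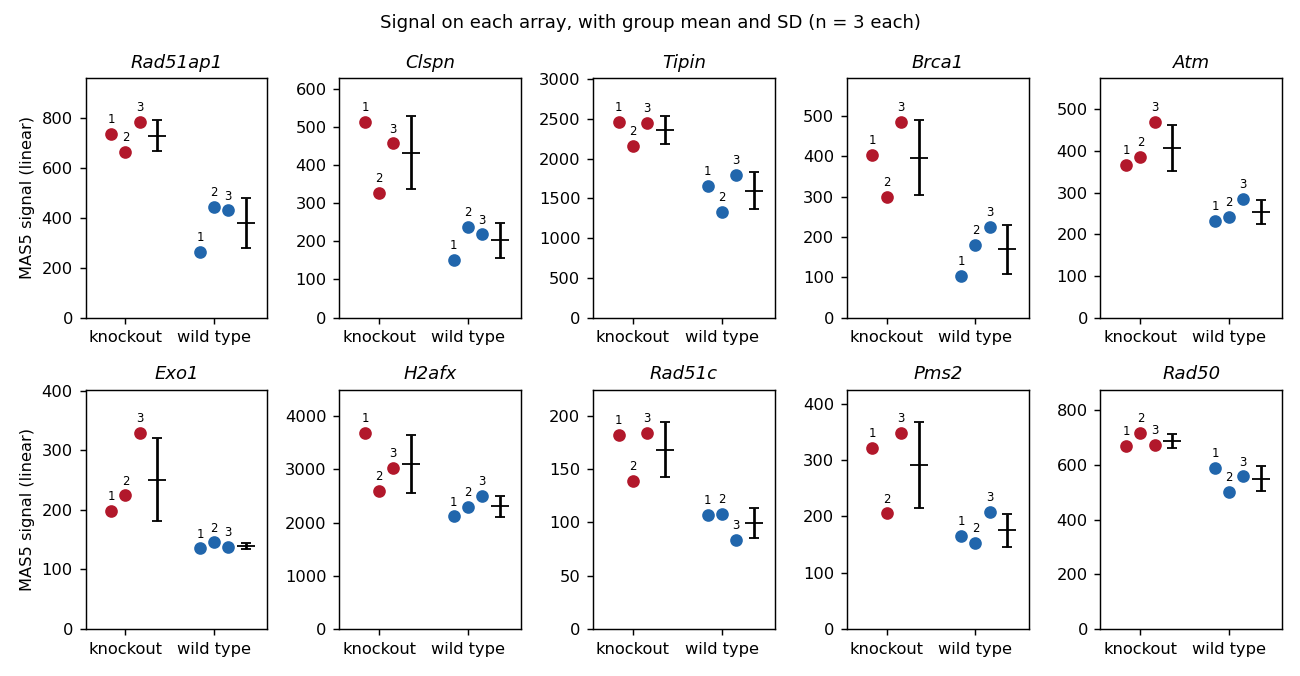
Signal on the linear MAS5 scale on each array for the 10 genes of smallest p, numbered by replicate, knockout in red and wild type in blue, with the group mean and SD (n = 3 each). In 9 of the 10 panels the lowest knockout array is above the highest wild-type array, and in Pms2 knockout replicate 2 (205) lies under wild type replicate 3 (208).

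Of the 8 Fanconi anaemia genes 0 had an unadjusted p under 0.05, where 9.14% of all genes were higher at that p. All 8 had log2 differences above 0, as did 54.6% of all genes, with a median of 0.40 over the 8. Under quantile normalization or median centring 7 were above 0, Fancg turning below 0. The median was 0.22 without wild type replicate 2, and leaving out wild type replicate 1 brought 2 genes, and leaving out knockout replicate 2 brought 1 gene, to an unadjusted p under 0.05. At the main probe sets the largest log2 differences were 0.62 for Fanci, 0.53 for Fancd2 and 0.53 for Brip1. Fanci averaged 158 ± 61.3 in knockout and 99.3 ± 18.7 in wild type, with overlap (adjusted p = 0.452, limma). Fancd2 averaged 160 ± 15.1 in knockout and 114 ± 32.1 in wild type, without overlap (adjusted p = 0.455, limma). The second tested probe set of Fancd2 was at 0.12. The proteins of Fanci and Fancd2 form a pair that is ubiquitinated and clamps onto DNA. The core complex, the ubiquitin ligase that modifies them, was mixed in size. Fancb, an X-linked core subunit, had signals of 280.2, 283 and 336 in knockout, against 257, 217 and 221 in wild type. Its arrays did not overlap (log2 0.37, 95% interval −0.03 to 0.77, adjusted p = 0.397). The second tested probe set of Fancb was at 0.71, with overlap. Fancc had signals of 542, 576 and 481 in knockout, against 476, 275 and 469.7 in wild type. The lowest knockout array of Fancc was just above the highest wild-type array, wild type replicate 2 stood apart as low, and the other 2 tested probe sets were at −0.03 and −0.08. Without wild type replicate 2 the log2 difference of Fancc was 0.17.

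Fancg, a scaffold of the core complex, was at 194, 104 and 185 in knockout, against 176, 128 and 165 in wild type, a log2 difference of 0.0017 with a 95% interval from −0.67 to 0.67. Knockout replicate 2 was the lowest of the 6 arrays, and the second probe set of Fancg was at −0.45 (adjusted p = 0.638). Fanca, another core subunit, averaged 232 ± 22.7 in knockout and 209 ± 43.8 in wild type, and Fancl, the catalytic ligase subunit, 829.6 ± 14.8 in knockout and 777 ± 122 in wild type. Brip1, a helicase bound to BRCA1, was dim, at 91.0, 67.5 and 94.8 in knockout and 39.1, 52.98 and 94.0 in wild type. Its interval ran from −0.40 to 1.45 on the log2 scale, the widest of the group.

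Mismatch repair proteins form dimers, and 2 of the 3 genes had higher and 1 a lower mean in knockout. Both higher genes, Msh6 and Pms2, had an unadjusted p under 0.05, where 9.14% of all genes were higher at that p. Neither gene had one without knockout replicate 1, without knockout replicate 3 or without the liver-rich arrays. Msh6, the partner that recognises single mismatches, had signals of 835, 744 and 986 in knockout, against 605, 706 and 704 in wild type. No arrays overlapped, and the difference was 1.27-fold (SE 0.14 on the log2 scale, adjusted p = 0.339). Msh3, the alternative partner for larger loops, was at 360.4, 437 and 325 in knockout, against 441, 447 and 429.5 in wild type (log2 −0.24, SE 0.16, adjusted p = 0.542). Wild-type arrays of Msh3 lay close together, while knockout replicate 2 was among them and the other knockout arrays were lower. Leaving out 1 array moved the log2 difference of Msh3 between −0.36, without knockout replicate 2, and −0.15, without knockout replicate 3. A second probe set of Msh3 had a log2 difference of 0.19, and the mean of both was −0.025. Pms2, a subunit of the endonuclease that nicks the new strand, had signals of 322, 205 and 348 in knockout, against 165, 153 and 208 in wild type (1.63-fold, SE 0.25 on the log2 scale, adjusted p = 0.278). The other probe sets of Pms2 had log2 differences of 0.14 and −0.23, and the mean of all 3 was 0.20.

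Of the 8 checkpoint kinase and fork-signalling genes 5 had an unadjusted p under 0.05 and 8 a log2 difference above 0, with a median of 0.51. Of all genes 9.14% were higher at that p, and 54.6% had a difference above 0. The 8 became 7 with median centring, without knockout replicate 3, and without wild type replicate 1 or 2. With bacterial control RNA as a term 7 were above 0 too. The 5 became 3 without knockout replicate 1, without knockout replicate 3 or without the intensity trend of the fit. Clspn encodes claspin, the adaptor through which ATR activates CHK1 at stalled forks. Its signals were 514, 327 and 456 in knockout, against 150, 238 and 218 in wild type. Every knockout array was above every wild-type array, by 2.14-fold on average (95% interval 1.47 to 3.13, adjusted p = 0.136). Tipin, which rides the fork with TIMELESS and feeds the same kinase pathway, had signals of 2465, 2161 and 2448 in knockout, against 1659.8, 1333 and 1789.9 in wild type. The groups were again apart, by 1.49-fold (SE 0.13 on the log2 scale, adjusted p = 0.139).

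Chek1, the kinase downstream of both, averaged 363 ± 13.6 in knockout and 222 ± 96.5 in wild type (1.77-fold, 95% interval 1.06 to 2.96, adjusted p = 0.323), with wild type replicate 1 at 114 and the other wild-type arrays at 300.5 and 251. That probe set may be shared between transcripts, and the gene's specific probe sets gave log2 differences of 0.76 and 0.39. Topbp1, the activator of ATR, averaged 1291 ± 264 in knockout and 942 ± 147 in wild type (adjusted p = 0.322). At its main probe set Atr itself differed little, with a log2 difference of 0.05 and an interval from −0.32 to 0.42. The other tested probe sets of Atr were at 0.30 and 0.32, both with overlap. Atrip, the partner of Atr, was at 141 ± 38.4 in knockout and 119.9 ± 39.0 in wild type.

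Atm, the kinase activated by broken ends, had signals of 366, 386 and 470.3 in knockout, against 232, 242 and 285 in wild type. The genotypes did not overlap at either tested probe set of Atm, and differed by 1.61-fold (SE 0.17 on the log2 scale, adjusted p = 0.166) and 2.21-fold (adjusted p = 0.139). Chek2, its downstream kinase, averaged 459.7 ± 39.3 in knockout and 378 ± 55.1 in wild type (adjusted p = 0.475). Between the paired kinases, the log2 difference at the main probe set was 0.68 for Atm and 0.05 for Atr. The other tested probe sets were at 1.15 for Atm and at 0.30 and 0.32 for Atr. The difference between these differences was not tested.

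Of all genes 54.6% had a difference above 0, and 9.14% were higher at an unadjusted p under 0.05. The 3 genes whose products mark and read the chromatin around a break had log2 differences above 0, with a median of 0.31. The median was 0.16 without wild type replicate 1, 0.19 without knockout replicate 1 and 0.13 on the arrays without bacterial control RNA, and H2afx, the 1 gene at an unadjusted p under 0.05, missed it without knockout replicate 1, on those arrays and without the liver-rich arrays. H2afx, the histone variant phosphorylated at breaks, had signals of 3686.5, 2599 and 3021 in knockout, against 2116, 2295 and 2507 in wild type. Knockout replicate 2 was the nearest to the wild-type arrays but above them, and the difference was 1.33-fold (SE 0.14 on the log2 scale, adjusted p = 0.255). Trp53bp1, which holds ends for joining and opposes resection, was at 1670.0, 1445 and 1495 in knockout, against 1076, 1486 and 1391 in wild type (log2 0.23, SE 0.14, adjusted p = 0.505). The groups overlapped, through knockout replicate 2 and wild type replicate 2. The log2 difference of Trp53bp1 was 0.094 without wild type replicate 1, 0.33 without wild type replicate 2 and 0.046 on the arrays without bacterial control RNA. Mdc1, the reader of phosphorylated H2AX, averaged 322 ± 45.6 in knockout and 262 ± 44.2 in wild type.

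**Figure D3:**
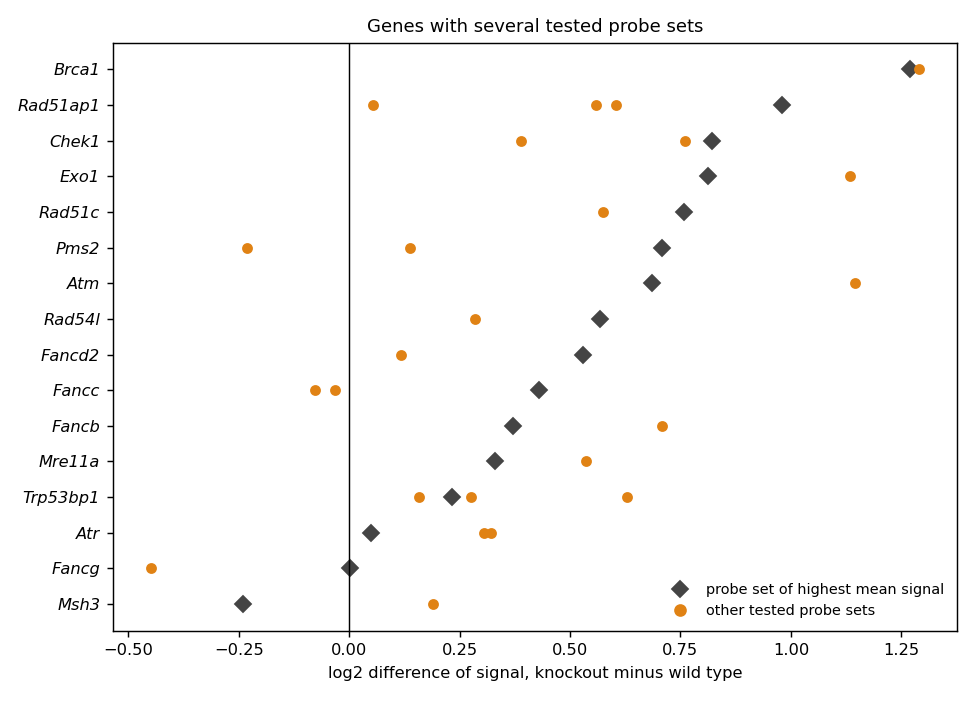
Log2 difference of signal, knockout minus wild type, for every tested probe set of the 16 genes that had several, with the probe set of highest mean signal as a diamond. In 12 genes the probe sets share a sign, and in Fancc, Fancg, Msh3 and Pms2 they do not.

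Promoters were searched for the words of factors known to act on cell cycle genes, in RefSeq sequence of the assembly GRCm38.p6 from 250 bases before to 50 bases after the start. Of the 37 genes 29 matched the promoter table, with 31 promoters. Shares are per gene for the set and per promoter for the table, which was not matched to the set for base composition. An E2F-type word (TTTCGCGC, TTTGGCGC, TTTCCCGC or TTTGCCGC on either strand) was present in 10 of the 29 (34.5%), against 2.26% of the table's 32851 promoters, and a CCAAT box (CCAAT on either strand) in 18 (62.1%), against 37.4%. The CHR words TTTGAA and TTCGAA were present in 2 of the 29, Atr and Bard1, against 19.2% of all promoters. In Msh3 a pair of E2F-type words on opposite strands overlapped. Clspn, Topbp1, Msh6 and Rad51c are shown as the genes with an E2F-type word and an unadjusted p under 0.05 (Rad51c by the first of its promoters). Brca1 and Rad51ap1 are shown as the 2 genes of the recombination core with the largest differences. Of the words searched, their promoters hold only CCAAT boxes. Each is written 5′ to 3′ along the gene's strand, with E2F-type words and CCAAT boxes on either strand in capitals.
Clspn, chr4:126556730-126557029, plus strand: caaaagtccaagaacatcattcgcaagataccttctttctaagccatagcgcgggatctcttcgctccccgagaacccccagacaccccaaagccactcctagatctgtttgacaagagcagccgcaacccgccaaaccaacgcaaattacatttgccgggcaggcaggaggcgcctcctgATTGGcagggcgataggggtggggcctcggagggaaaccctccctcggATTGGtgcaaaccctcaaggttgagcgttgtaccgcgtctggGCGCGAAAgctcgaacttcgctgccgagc
Topbp1, chr9:103305077-103305376, plus strand: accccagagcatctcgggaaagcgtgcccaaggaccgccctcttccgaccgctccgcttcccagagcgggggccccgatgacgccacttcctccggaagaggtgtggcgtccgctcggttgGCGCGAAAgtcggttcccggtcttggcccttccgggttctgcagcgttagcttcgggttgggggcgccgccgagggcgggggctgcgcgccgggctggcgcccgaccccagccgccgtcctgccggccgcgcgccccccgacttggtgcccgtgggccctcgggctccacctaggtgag
Msh6, chr17:87974800-87975099, plus strand: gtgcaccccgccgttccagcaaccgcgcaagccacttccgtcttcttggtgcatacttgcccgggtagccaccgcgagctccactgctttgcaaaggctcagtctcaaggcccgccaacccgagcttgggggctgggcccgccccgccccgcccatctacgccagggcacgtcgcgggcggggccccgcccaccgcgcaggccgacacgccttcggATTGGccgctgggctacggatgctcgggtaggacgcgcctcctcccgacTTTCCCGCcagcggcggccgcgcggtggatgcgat
Rad51c, chr11:87404457-87404756, minus strand: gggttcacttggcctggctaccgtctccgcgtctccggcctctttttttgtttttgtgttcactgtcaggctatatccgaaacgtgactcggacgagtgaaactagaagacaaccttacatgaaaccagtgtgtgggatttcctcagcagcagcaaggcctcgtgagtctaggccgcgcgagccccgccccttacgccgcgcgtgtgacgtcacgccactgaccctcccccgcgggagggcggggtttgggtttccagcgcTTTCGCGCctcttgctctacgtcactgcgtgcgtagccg
Brca1, chr11:101551906-101552205, minus strand: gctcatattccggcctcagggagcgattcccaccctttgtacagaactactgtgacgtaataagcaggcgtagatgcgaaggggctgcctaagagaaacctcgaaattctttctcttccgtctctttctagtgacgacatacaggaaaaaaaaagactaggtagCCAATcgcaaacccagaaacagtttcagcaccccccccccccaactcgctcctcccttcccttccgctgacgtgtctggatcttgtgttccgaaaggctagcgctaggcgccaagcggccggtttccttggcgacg
Rad51ap1, chr6:126939538-126939837, minus strand: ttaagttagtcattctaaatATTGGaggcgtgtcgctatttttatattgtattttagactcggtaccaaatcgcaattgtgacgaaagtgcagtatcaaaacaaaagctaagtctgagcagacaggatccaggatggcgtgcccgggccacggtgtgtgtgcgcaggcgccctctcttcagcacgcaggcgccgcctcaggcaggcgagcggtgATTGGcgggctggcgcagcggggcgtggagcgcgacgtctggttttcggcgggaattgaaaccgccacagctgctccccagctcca

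Clspn carried the E2F-type word 22 bases into the transcript and CCAAT boxes at −69 and −21, whereas Topbp1 had 1 E2F-type word at −129 and no CCAAT box, and Msh6 had 1 of each, at 16 and −34. Rad51c had an E2F-type word 12 bases into the transcript and no CCAAT box. Brca1 had a CCAAT box at −86 and Rad51ap1 at −230 and −36. The 9 tested genes that held an E2F-type word had a median log2 difference of 0.32, and the 19 without an E2F-type word 0.38. With a CCAAT box the median was 0.38 over 18 genes, and without one 0.28 over 10 genes. These are matches of letters in a fixed window.

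Across the arrays, the mean log2 signal of the 35 genes, relative to each gene's own mean, was 0.27, 0.09 and 0.30 on knockout replicates 1 to 3 and −0.31, −0.25 and −0.09 on wild type replicates 1 to 3. The genotypes did not overlap, with knockout replicate 2 lowest among the knockouts and wild type replicate 1 lowest of all. For 19 DNA replication genes the means were 0.44, 0.01 and 0.39 in knockout, against −0.51, −0.22 and −0.11 in wild type, also without overlap. For 17 genes of mitosis they were 0.60, −0.13 and 0.50 in knockout, against −0.69, −0.16 and −0.12 in wild type, and knockout replicate 2 lay inside the wild-type range. On that array 19 of the 35 repair genes (54.3%), 13 of the 19 replication genes (68.4%) and 6 of the 17 mitotic genes (35.3%) were above all wild-type arrays, where 30.3% of all genes were. On knockout replicate 1 the shares were 77.1% of repair, 89.5% of replication and 100% of mitotic genes, beside 28.4% of all genes. On knockout replicate 3 they were 82.9%, 89.5% and 94.1%, beside 35.9%. The part of cell division in the repair genes' differences was not tested.

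The groups of repair genes differed in their spread over arrays. End resection and checkpoint genes had all knockout arrays close together, at 0.13 to 0.27 and 0.20 to 0.35, above all wild-type arrays at −0.23 to −0.14 and −0.46 to −0.10. The recombination core was also apart, at 0.10 to 0.40 in knockout and −0.48 to −0.15 in wild type. Chromatin mark genes were apart by less, with knockout replicate 2 at 0.0008 and wild type replicate 2 at −0.04. Fanconi anaemia genes on knockout replicate 2 (−0.01) lay beside wild type replicate 3 (−0.01), and mismatch repair genes there (−0.01) were next to wild type replicate 3 (−0.03). Without the pair of liver-rich arrays the medians were 0.53 for the recombination core, 0.43 for checkpoint genes, 0.39 for mismatch repair, 0.28 for chromatin marks, 0.27 for end resection and 0.24 for Fanconi anaemia genes. There genotype cannot be told apart from bacterial control RNA, which the remaining wild-type arrays held and the remaining knockout arrays lacked. Among the 4 arrays without bacterial control RNA, which leave wild type replicate 2 as the only control, the median over the 35 genes was 0.44.

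**Figure D4:**
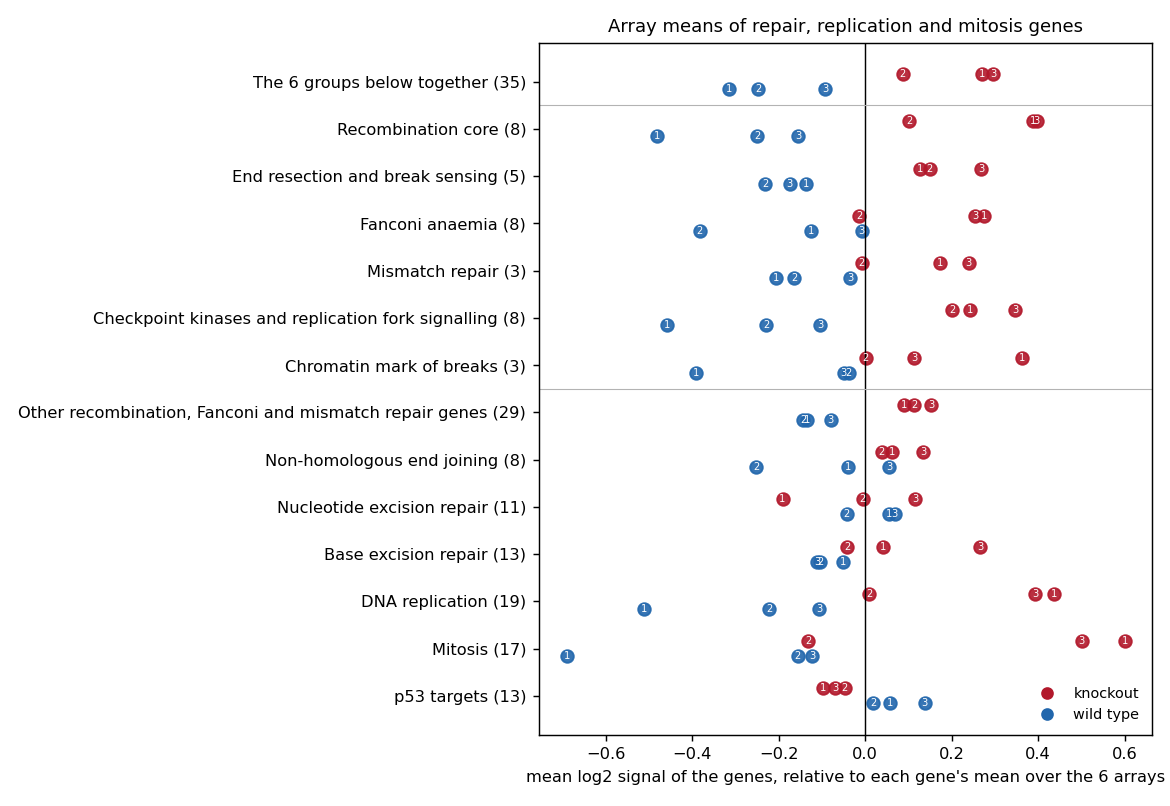
Mean log2 signal of each group of genes on each array, relative to each gene's mean over the 6 arrays, with the number of tested genes in brackets, knockout in red and wild type in blue, numbered by replicate. The 35 repair genes together separate the genotypes, at 0.09 to 0.30 in knockout and −0.31 to −0.09 in wild type. Other genes of the same pathways, base excision repair and DNA replication also separate them, and p53 targets do so the other way. In Fanconi anaemia, end joining, nucleotide excision repair and mitosis the genotypes overlap.

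Other genes of the same pathways, 29 tested of a list of 34, were higher in 24, with a median log2 difference of 0.19 and 6 higher and 0 lower at an unadjusted p under 0.05 (20.7%). Of all genes 54.6% were higher, and at that p 9.14% were higher and 7.36% lower. The 6 became 2 without knockout replicate 1, 3 without knockout replicate 3, 3 without wild type replicate 2 and 2 without the liver-rich arrays. Slx4, the scaffold of the structure-specific nucleases, averaged 245 ± 55.0 in knockout and 137 ± 15.5 in wild type (log2 0.82, adjusted p = 0.206). Ube2t, the ubiquitin-conjugating enzyme of the Fanconi pathway, averaged 429.8 ± 58.0 in knockout and 306 ± 18.4 in wild type (log2 0.48, adjusted p = 0.262). Both lay above the wild-type range on every knockout array.

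In the repair pathways that do not depend on a sister chromatid, the shares higher at an unadjusted p under 0.05 were 12.5% for end joining, 9.09% for nucleotide excision repair and 15.4% for base excision repair, beside 9.14% of all genes. Nucleotide excision repair, which removes bulky lesions, had 2 of 11 genes higher, a median of −0.09 and 1 at that p, Xpa (588.0 ± 130 in knockout and 428 ± 15.0 in wild type, adjusted p = 0.313), while Rad23b was at 2381 ± 357 in knockout and 2831 ± 310 in wild type. Non-homologous end joining had 7 of 8 higher with a median of 0.14 and 1 at that p, Xrcc6, the Ku70 gene (515 ± 80.8 in knockout and 341 ± 44.6 in wild type, adjusted p = 0.215), beside its partner Xrcc5 at a log2 difference of 0.37. Base excision repair had 10 of 13 higher with a median of 0.13 and 2 at that p, Ung, the uracil glycosylase (273 ± 65.0 in knockout and 155 ± 32.7 in wild type, adjusted p = 0.231), and Xrcc1 (log2 0.35, adjusted p = 0.339). Quantile normalization left 5 of 8 end joining genes and 7 of 13 base excision repair genes higher, and median centring 6 and 8. With probe sets averaged, or without probe sets that may be shared between transcripts, 11 of 13 base excision repair genes were higher and 4 had an unadjusted p under 0.05, with medians of 0.26 and 0.27. Single arrays moved these medians too. End joining was at 0.08 without wild type replicate 1 or 2, at 0.23 without wild type replicate 3 and at 0.03, with 4 of 8 higher, without the liver-rich arrays. Nucleotide excision repair was at −0.03 without knockout replicate 1, −0.05 without wild type replicate 3, −0.14 when wild type replicate 2 was left out and −0.16 when wild type replicate 1 was. Base excision repair was at 0.21 without knockout replicate 2 or wild type replicate 2 and at 0.22 without wild type replicate 1. The difference between these lists and the 35 genes was not tested.

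DNA replication genes, given for comparison, had 17 of 19 higher, a median of 0.60 and 16 at an unadjusted p under 0.05, those of smallest p being Mcm5 (log2 0.90) and Cdt1 (log2 0.55), and mitotic genes had 17 of 17 higher, a median of 0.63 and 13 at that p, those of smallest p being Ndc80 (log2 0.98) and Cenpe (log2 0.78). The 13 mitotic genes became 5 without knockout replicate 1, 6 without knockout replicate 3 and 5 without wild type replicate 1. In the main fit 9.14% of all genes were higher at that p. The arrays without bacterial control RNA leave wild type replicate 2 as the only control. On them the medians were 0.45 for mitotic and 0.57 for replication genes. Targets of p53, the transcription factor that acts downstream of ATM and ATR, were higher in 3 of 13, where 54.6% of all genes were, with a median of −0.11. That median was −0.24 without wild type replicate 1, −0.17 when wild type replicate 2 was left out and −0.16 when knockout replicate 3 was. Their 2 members of smallest p were Trp53inp1, at 3172 ± 278 in knockout and 4570.5 ± 327 in wild type (log2 −0.53, adjusted p = 0.121), and Fas, at 569 ± 67.8 in knockout and 819 ± 30.5 in wild type (log2 −0.53, adjusted p = 0.156). All of these values came from the fit that gave the repair genes, and none passed an adjusted p of 0.05.

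Markers of some other cell types differed between the genotypes as well, and none was at 0. Mast cell markers had a summed signal of 3037 to 7143 in knockout and 1338 to 2050.1 in wild type, alveolar type I markers one of 67882 to 85455 in knockout and 98156 to 134101 in wild type, and endothelial markers one of 12829 to 15094 in knockout and 17370 to 19614 in wild type. Erythroid markers overlapped, at 10760.1 to 16963 in knockout and 8986 to 18806 in wild type. So did alveolar type II markers, at 106295 to 124743 in knockout and 107991 to 141270 in wild type. The 7 lymphoid markers, of which 1 passed the filter, summed to 130.2 to 192 in knockout and 243 to 392 in wild type. The 6 ciliated cell markers summed to 12491 to 12576 in knockout and 7592 to 9005 in wild type, and the 6 macrophage markers to 5232 to 6564 in knockout and 5039 to 5976 in wild type. The macrophage sums overlapped, and 3 of these markers were higher and 3 lower, with log2 differences from −2.96 to 1.24. The part of these cell types in the repair genes' differences was not tested.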

How the data were processed

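Total RNA was measured on 6 arrays, 3 knockout and 3 wild type, grouped by the sample descriptions. The deposited values are intensity values on a linear scale, made by the authors with MAS5 per the submitters' processing notes, with no MAS5 version recorded there. Every array already had a mean signal of 500.003 once the outer 2% of values were trimmed from both ends, so no further scaling was applied, and log2 was taken with no pseudocount.

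Gene symbols came from the platform annotation, updated by gene ID through a RefSeq table of GRCm38.p6 (34754 of 34945 probe sets with 1 symbol). The 932 probe sets with several symbols were not named. The 64 control probe sets stayed out of every fit. Probe sets with a mean log2 signal above the 40th percentile were tested (27022 of 45037) with limma 3.58.1 in R 4.3.3 (lmFit, eBayes with an intensity trend, two-sided), with Benjamini-Hochberg adjustment over all of them. Each gene is represented by its probe set of highest mean. Fold values are ratios of geometric means, and ± gives the SD over 3 arrays. The fit was tested on simulated data. The number of arrays limits the precision.

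The genes and lists were chosen with earlier results of these data known. Values on every array are given for the 10 genes of smallest p, the 2 of smallest p in each group and the 3 of lowest difference (17 genes), with further genes as means; Rad54b, Rad54l, Bard1 and Brip1 were added to them after their values were seen. From each other pathway list the 2 of smallest p are named. Alternatives changed the scaling, the filter, the pseudocount, the variance model, the choice of probe set and the arrays; the one without the arrays rich in liver transcripts (knockout replicate 1 and wild type replicate 2) was chosen after seeing the data. Tables and figures were made with Python 3.11.15, pandas 2.3.3 and matplotlib 3.10.9.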

Additional observations from a re-analysis of the deposited data

Results flagged for a closer look

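Among the 24 probe sets of these genes that were not tested, 21 for a dim signal and 3 for several symbols, 4 had every knockout array above every wild-type array and 0 the reverse. A dim probe set of Brca1 had signals of 115, 79.0 and 82.0 in knockout, against 29.4, 21.2 and 47.3 in wild type. A dim probe set of Exo1 had signals of 29.6, 20.5 and 12.1 in knockout, against 1.26, 3.33 and 10.2 in wild type. For Chek1, 1 dim probe set had signals of 25.4, 43.4 and 35.2 in knockout, against 24.7, 2.66 and 13.0 in wild type, and another had 29.1, 24.2 and 24.5 in knockout, against 10.8, 3.74 and 2.70 in wild type. All 4 had a mean below the filter of 59.7, and the main probe sets of these genes showed the same separation. Among the tested probe sets 10.7% did so, and the share among all dim probe sets was not counted.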

How the results depend on the processing

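With limma the 35 genes gave 0 calls at an adjusted p of 0.05 under each of the 20 alternatives, and 13 of them had an unadjusted p under 0.05 in the values reported. Their median log2 difference of 0.38 ran from 0.33 to 0.48 when 1 array was left out and was lowest, at 0.30, without the liver-rich arrays. The count of genes higher at an unadjusted p under 0.05 was 6 to 14 when 1 array was left out and 7 without the liver-rich arrays, a setting chosen after seeing the data. In that setting genotype and bacterial control RNA go together, so they cannot be told apart. Over all probe sets, the 8 past the adjusted threshold became 0 without an intensity trend (3287 at an unadjusted p under 0.05), 40 with robust variance, 4 with sex as a term, 2 with spike-in RNA as a term, 3 on the 4 arrays without spike-in RNA (whose lone wild-type array is assumed to vary like the knockouts) and 58 without the liver-rich arrays, and 0 to 13 when 1 array was left out. With the replicate number as a block, 0 probe sets passed (3054 at an unadjusted p under 0.05) and 11 of the 35 genes had an unadjusted p under 0.05; no gene of the set passed the adjusted threshold with or without this pairing, and same-numbered samples did not deviate together (r of −0.14, −0.38 and −0.01). Of the 17 genes given array by array, Palb2 and Fancg changed sign: Palb2 (−0.13) was at 0.0010 without wild type replicate 2 and 0.10 without the liver-rich arrays, and Fancg (0.0017) was at −0.076 with quantile normalization, −0.058 with median centring, −0.16 without knockout replicate 1, −0.13 without knockout replicate 3, −0.14 without wild type replicate 2, −0.30 without the liver-rich arrays and −0.22 as the mean of its probe sets. When 1 array was left out Palb2 ran from −0.35 and Fancg up to 0.29. The cause was not tested. The share of higher differences among probe sets at an unadjusted p under 0.05 was 53.7%, against 62% with spike-in RNA as a term, 64.4% on the arrays without it and 35.2% with median centring.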
